A study of Homo sapiens with 8 samples.

Results

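Fc receptors are the proteins through which cells sense antibody, and 8 of their genes (FCGR1A, FCGR2A, FCGR2B, FCGR3A, FCER1G, FCAR, FCGRT and FCER2) were followed here through THP-1 leukemia cells and their decitabine-resistant derivative. The 8 genes were taken by symbol from the 60664 genes of the deposited expression table. RNA-seq was performed in 4 groups of 2 replicates, which the labels call biological replicates. The parental line and the DAC-resistant line were each given either DMSO, the solvent control, or 1 µM DAC (decitabine) over 6 days. THP-1 is an established line of human acute monocytic leukemia, labelled wild type in every group. DAC is a cytidine analogue that is built into DNA and traps DNA methyltransferases, so that methylation is lost as cells divide. The DAC-resistant line was raised by the study from THP-1 through repeated long-term DAC exposure, so all resistant libraries come from cells that had met the drug before, the DMSO libraries included. Whether that line descends from a single clone is not given in the sources used here, and the difference between the lines therefore rests on a single resistant derivative.

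Fc receptors bind the constant part of immunoglobulins. The activating receptors for IgG, and the receptors for IgA and for IgE on mast cells, carry or borrow a tyrosine motif called the ITAM, which SRC family kinases phosphorylate and on which the kinase SYK docks. FCGR2B carries the opposite motif, the ITIM, and recruits the lipid phosphatase SHIP1. In monocytes these receptors drive phagocytosis of antibody-coated targets, the oxidative burst and cytokine release, and their balance sets how readily antibody triggers the cell.

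Sequence upstream of a gene is where DNA methylation and transcription factors can meet. Upstream windows from RefSeq on GRCh38.p14 were found for 7 of the 8 genes, all but FCAR, and 5 windows are shown. They belong to FCGR2A and FCER2, which were called lower in the resistant line, to FCGR2B, the inhibitory receptor, to FCER1G, whose level varied least, and to FCGR1A, the IgG receptor with the highest level. Each is the 250 bases before a transcription start, written 5′ to 3′ on the strand of the gene. Capitals mark matches on either strand to GAAA, any 2 bases and GAAA, the core of the interferon-stimulated response element, to TTCNNNGAA, the core of the gamma-activated site, or to GAGGAA, a word bound by the myeloid factor PU.1.
FCGR1A, chr1:149782444-149782693, plus strand: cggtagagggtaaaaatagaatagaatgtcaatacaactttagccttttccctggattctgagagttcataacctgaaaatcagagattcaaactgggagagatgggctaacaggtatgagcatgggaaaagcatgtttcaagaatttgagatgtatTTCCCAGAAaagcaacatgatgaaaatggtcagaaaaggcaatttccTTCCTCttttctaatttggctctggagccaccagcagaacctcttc
FCGR2A, chr1:161505207-161505456, plus strand: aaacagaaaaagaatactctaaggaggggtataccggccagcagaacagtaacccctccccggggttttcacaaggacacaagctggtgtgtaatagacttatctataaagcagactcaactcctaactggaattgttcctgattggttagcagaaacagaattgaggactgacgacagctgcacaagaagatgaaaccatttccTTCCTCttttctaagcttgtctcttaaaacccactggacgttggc
FCGR2B, second start, chr1:161662893-161663142, plus strand: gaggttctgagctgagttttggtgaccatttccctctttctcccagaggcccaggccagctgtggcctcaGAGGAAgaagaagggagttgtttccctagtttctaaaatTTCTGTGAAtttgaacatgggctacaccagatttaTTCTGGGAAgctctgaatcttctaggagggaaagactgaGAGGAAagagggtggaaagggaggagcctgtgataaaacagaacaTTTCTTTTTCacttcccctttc
FCER1G, chr1:161215045-161215294, plus strand: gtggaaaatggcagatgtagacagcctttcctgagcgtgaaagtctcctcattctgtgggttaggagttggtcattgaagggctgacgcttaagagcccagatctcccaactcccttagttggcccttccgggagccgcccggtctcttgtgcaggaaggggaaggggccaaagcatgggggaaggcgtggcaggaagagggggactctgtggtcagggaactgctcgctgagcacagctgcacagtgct
FCER2, first start, chr19:7702132-7702381, minus strand: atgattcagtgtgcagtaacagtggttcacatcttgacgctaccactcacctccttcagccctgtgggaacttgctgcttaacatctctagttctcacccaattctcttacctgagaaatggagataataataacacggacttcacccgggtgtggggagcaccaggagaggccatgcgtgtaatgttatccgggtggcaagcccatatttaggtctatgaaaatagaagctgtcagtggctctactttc

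The windows of FCGR1A and FCGR2A held the PU.1 word on the opposite strand at nearly the same place, 46 and 45 bases before the start. Around it they shared a run of 20 identical bases, atttccTTCCTCttttctaa, the longest run common to windows of any pair of different Fc receptor genes. FCGR1A also held a gamma-activated site core 93 bases before its start. FCGR2B held the response element core 22 bases before the second start, gamma-activated site cores at 141 and 106 and PU.1 words at 180 and 67. None of these words stood in the windows of FCER1G, of FCGRT or of the first starts of FCGR2B and FCER2, while the second start of FCER2 had a gamma-activated site core at 185 and a response element core at 58. Of the 5 FCGR3A starts, only the fifth held a match, a response element core at 52. Over all 35114 windows of this length, 3.02% held the response element core, 6.57% the gamma-activated site core and 23.6% the PU.1 word. A match to the PU.1 word is thus common, and every match is a description only. CG, the dinucleotide at which human DNA is mostly methylated, was counted in the windows. FCGR1A held 1, FCGR2A 4, the FCGR2B window shown 0 and the other FCGR2B window 4, FCER1G 7 and the FCER2 window shown 5, against a median of 11 and quartiles of 3 and 23 over all windows. FCGR1A and the FCGR2B window shown thus lay below the lower quartile and the others named lay between it and the median. The RefSeq starts of FCGR1A, FCGR2A, FCGR3A, FCER1G, FCER2 and FCGRT lie inside the genes as the annotation used for lengths draws them. The ends of the windows shown for FCGR1A, FCGR2A, FCER1G and FCER2 thus overlap annotated gene bodies, and the FCGRT start lies far inside. The fifth FCGR3A window and the second FCER2 window, where matches stood, lie wholly inside the gene bodies. The first FCGR2B start lies outside the gene as annotated, before it. Methylation of these windows was not analysed here.

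Expression was read as FPKM, the reads on a gene scaled by its exon length and by the library total, so that levels can be compared between genes as well as between libraries. The reads behind the values could be worked back from the scaling, and they are given where they are few. Recovered reads on genes came to between 28684969 and 33387219 per library, and were lowest in parental cells under DAC. Of the 8 Fc receptors, 6 reached 1 FPKM in at least 2 libraries and were tested among 14899 genes with limma on log2(FPKM + 1). FCGR2B and FCGR3A did not, and their tests come from the same fit without the filter, over 39592 genes. A call required a log2 fold change of 1 or more in either direction together with an unadjusted p no higher than 0.01. Adjustment of p followed Benjamini and Hochberg over every gene in the fit. FCAR and FCER2 reached 1 FPKM in parental libraries alone and so entered the test through them. A single gene in 2 libraries against 2 cannot reach an exact permutation p below 0.333.

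In parental cells given DMSO, the order of the FPKM levels was FCER1G, FCGR1A, FCGR2A, FCGRT, FCER2, FCAR, FCGR2B and FCGR3A. The means ran from 74.4 FPKM for FCER1G to 0.0232 FPKM for FCGR3A. FCGR2A, with 15.3 ± 1.28 FPKM (SD, n = 2), and FCGRT, with 14.1 ± 0.766 FPKM (SD, n = 2), overlapped in their libraries. The other neighbours in that order did not overlap, apart from FCGR2B and FCGR3A, for which a library of the first held 0.0347 FPKM and one of the second 0.0463 FPKM. The cells thus carried the adaptor FCER1G and the high-affinity receptor FCGR1A at the top and the inhibitory receptor FCGR2B near the bottom.

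**Figure D1:**
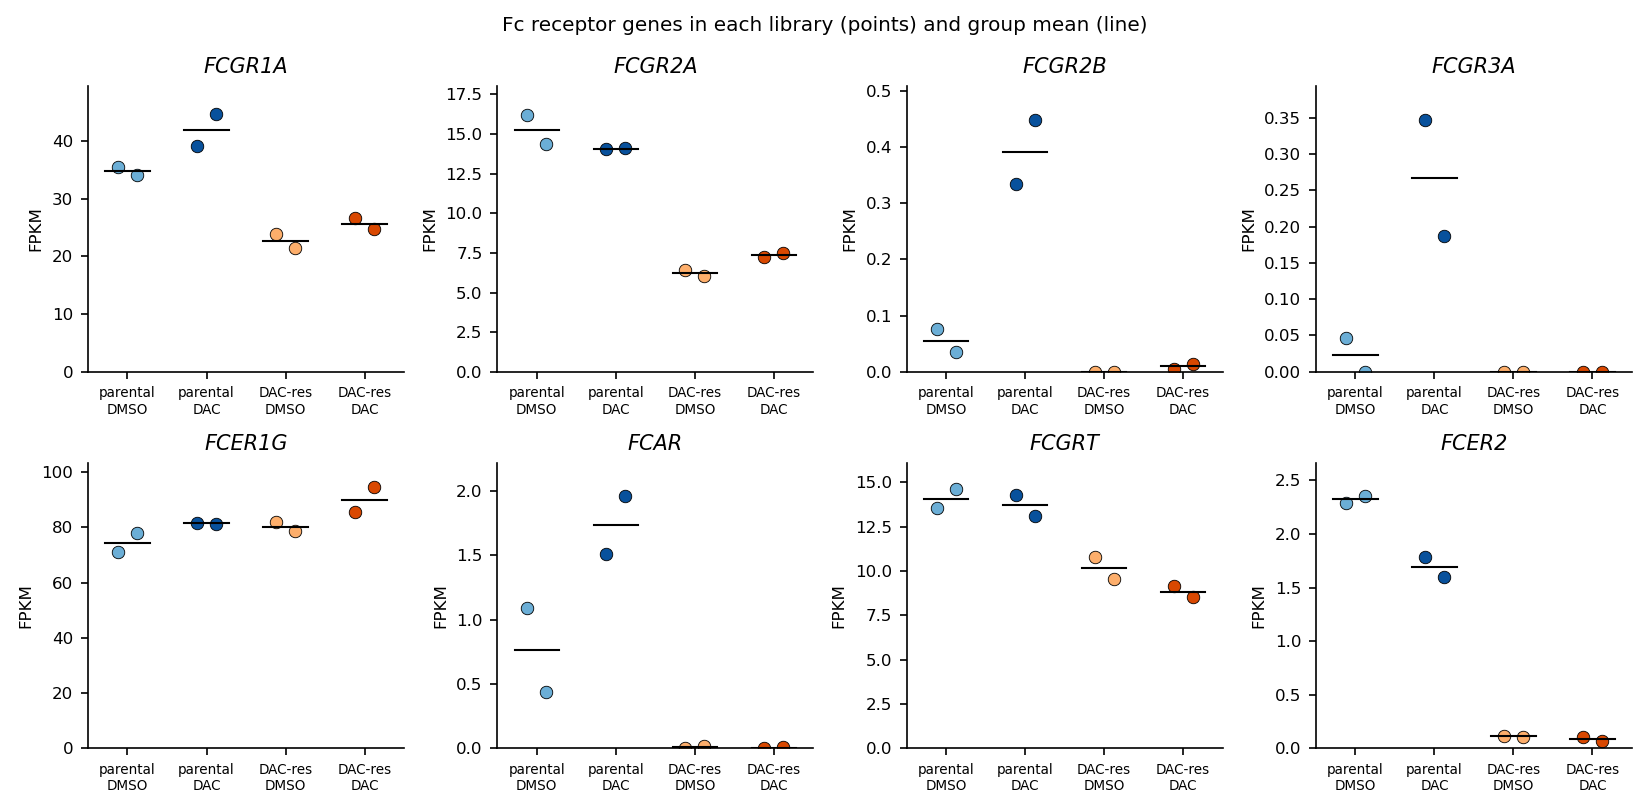
FPKM of the 8 Fc receptor genes in each library, on a separate linear axis from 0 for each gene; points are the 2 replicates of each group and lines the group means. FCGR2A, FCAR and FCER2 lie lower in all 4 DAC-resistant libraries than in any parental library, while FCER1G stays between 70.95 and 94.6 FPKM in all 8.

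FCGR1A, FCGR2A, FCGRT, FCER2 and FCAR were all lower in DAC-resistant than in parental cells given DMSO, with groups that did not overlap, while FCER1G was not. FCGR2A and FCER2 passed the call. This was 2 of the 6 tested members, both lower, where 8.73% of all genes tested were called in either direction and 4.28% lower. FCER2 was tested through the parental libraries alone, so its part of that count is a description and nothing is read from the count. At an adjusted p under 0.05 the 5 genes named first were lower, where 26.2% of all genes were lower by that rule. FCAR and FCER2 are among these 5, so this count too is a description. The comparison asks what differs in the resistant line before the drug is given again, and fewer cells with a transcript and less transcript per cell cannot be told apart in bulk RNA.

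FCGR1A (ENSG00000150337, chr1:149782671-149791675, plus strand) encodes CD64, the high-affinity IgG receptor, which signals through FCER1G. It stood at 35.5 and 34.08 FPKM in parental cells with DMSO and at 39.16 and 44.7 FPKM with DAC. In DAC-resistant cells it stood at 23.95 and 21.4 FPKM with DMSO and at 26.62 and 24.7 FPKM with DAC. All resistant libraries thus lay below all parental ones. The log2 fold change of resistant against parental cells was -0.60 ± 0.079 (SE) in DMSO, with an adjusted p of 0.000764, and -0.69 under DAC, with an adjusted p of 0.000291. These differences were beyond the spread between replicates but under the fold needed for a call. The DAC effect in parental cells was 0.26 on the log2 scale, with an adjusted p of 0.0278, and in resistant cells 0.17, with an adjusted p of 0.223. Without parental DAC replicate 2 the former was 0.17 (unadjusted p of 0.0946, limma), and the latter was 0.09 without resistant DMSO replicate 2. The difference between the DAC effects was -0.09, with a 95% interval from -0.35 to 0.18.

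FCGR2A (ENSG00000143226, chr1:161505430-161524013, plus strand) encodes CD32A, a low-affinity IgG receptor with an ITAM in its own tail. Its libraries held 16.18 and 14.37 FPKM in parental cells with DMSO and 14.03 and 14.13 FPKM with DAC. The DAC-resistant libraries held 6.445 and 6.025 FPKM with DMSO and 7.229 and 7.491 FPKM with DAC. The parental level was 2.45 times the resistant one in DMSO, and the groups were far apart. The log2 fold change was -1.17 ± 0.062 (SE), with an adjusted p of 1.33e-05, and FCGR2A was called lower. Under DAC it was -0.85, with an adjusted p of 3.18e-05, which did not reach the fold of a call. The DAC effect was -0.11 in parental cells (adjusted p of 0.178) and 0.21 in resistant cells (adjusted p of 0.0834), opposite in sign and neither past the threshold. The parental value was -0.03 without parental DMSO replicate 1, -0.19 without replicate 2 and -0.22 after quantile normalization. The difference between these DAC effects was 0.32 ± 0.087 (SE), with an adjusted p of 0.0231, where 49.3% of all genes had an adjusted p under 0.05. FCGR2A was the sole one of the 6 tested members with an adjusted p under 0.05 in that difference, and none was called, where 10.6% of all genes were.

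FCGR2B (ENSG00000072694, chr1:161663143-161678654, plus strand) encodes CD32B, the inhibitory IgG receptor. Its FPKM was 0.0759 and 0.0347 in parental cells with DMSO and 0.334 and 0.449 with DAC. It was 0 in both DAC-resistant DMSO libraries and 0.00471 and 0.0147 with DAC. The reads behind these values were 16 and 7, then 61 and 82, then 0 and 0, then 1 and 3, the smallest whole numbers that fit the values. The parental DAC libraries were the highest and did not overlap any others. Scaled by library, reads in parental cells under DAC were 7.02 times those with DMSO (95% interval 4.50 to 11.4, counting error only). Under DAC, parental cells held 40.7 times the reads of resistant cells (95% interval 15.5 to 151). With DMSO the parental level was at least 7.62-fold higher, taking 3 reads over the resistant group as the floor. On the log2(FPKM + 1) scale, which compresses such low levels, the DAC effect was 0.40 in parental cells (adjusted p of 0.00261) and 0.01 in resistant cells (adjusted p of 1). The difference between the DAC effects was -0.38, with an adjusted p of 0.0143. Resistant against parental cells under DAC differed by -0.46, with an adjusted p of 0.00113. None of these reached the fold of a call, but the last met the call at -1.15 after rescaling to TPM, where FCGR2B entered the test through the parental DAC libraries alone, so that this call is a description.

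FCGR3A (ENSG00000203747, chr1:161541759-161550968, minus strand) encodes CD16a, the IgG receptor of NK cells and of a subset of monocytes. It was nearly silent. Its reads, again the smallest whole numbers that fit, were 2 and 0 in parental cells with DMSO and 13 and 7 with DAC, or 0.347 and 0.187 FPKM in the latter. No read was found in the 4 DAC-resistant libraries. The ratio of parental reads under DAC to those with DMSO was 11.3, with a wide interval for counting error only from 2.74 to 99.6. Under DAC the parental level was at least 7.59-fold higher than the resistant one. That interval and that fold hold for the smallest numbers that fit. The exon length used here, 4950 bases, gave no whole reads for FCGR3A, so the true reads may be a multiple of them. The DAC effect in parental cells was 0.31 on the log2 scale, with an adjusted p of 0.0177, and the difference between the DAC effects was -0.31, with an adjusted p of 0.0699. A count of 0 in a group allows up to 3 reads.

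FCER1G (ENSG00000158869, chr1:161215234-161220699, plus strand) encodes the common γ chain, the ITAM adaptor that FCGR1A, FCGR3A and FCAR borrow. It held 70.95 and 77.76 FPKM in parental cells with DMSO, 81.72 and 81.08 FPKM with DAC, and 82.03 and 78.51 FPKM in the resistant line with DMSO. Resistant cells under DAC held 85.45 and 94.6 FPKM. It was the most abundant of the 8 in every library. The parental DAC and resistant DMSO libraries overlapped. The log2 fold changes were between 0.11 and 0.16 in the 4 simple comparisons, with adjusted p-values between 0.0757 and 0.163. With a library left out, the DAC effect lay between 0.065 and 0.196 in parental cells and between 0.089 and 0.235 in resistant cells. Likewise, the lines differed by 0.045 to 0.175 in DMSO and by 0.069 to 0.214 under DAC. Resistant against parental cells in DMSO differed by 0.11, with a 95% interval from -0.03 to 0.25. The same difference under DAC was 0.14, and was -0.02 after quantile normalization.

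FCAR (ENSG00000186431, chr19:54874235-54891420, plus strand) encodes CD89, the IgA receptor of myeloid cells. It stood at 1.09 and 0.436 FPKM in parental cells with DMSO, from 115 and 44 reads, and at 1.509 and 1.958 FPKM with DAC, from 138 and 179 reads. The 4 DAC-resistant libraries held 0, 2, 0 and 1 reads in all. FCAR was thus read in every parental library and stood at or under 3 reads in every resistant one, and the parental DMSO replicates differed widely. Parental reads were 79.0 times the resistant ones in DMSO (95% interval 21.5 to 658) and 361 times under DAC (95% interval 64.3 to 14290), intervals that cover counting error only and not the spread between the replicates. The log2 fold change of FPKM + 1 under DAC was -1.44 ± 0.19 (SE), with an adjusted p of 0.000595. It met the call, as a description, since FCAR entered the test through the parental libraries where it is high. In DMSO it was -0.78, with an adjusted p of 0.0124, under the fold of a call. It became a call at -1.05 without parental DMSO replicate 2, the library with 44 reads, and was -0.51 without replicate 1. With a pseudocount of 0.1 the value was -2.87, with voom on the recovered reads -6.03 and after rescaling to TPM -1.72, all calls. DAC in parental cells gave 2.25 times the reads (95% interval 1.85 to 2.74, counting error only), or 0.65 on the log2 scale with an adjusted p of 0.0247, which was no call. With a library left out this value lay between 0.38 without parental DMSO replicate 2 and 0.92 without replicate 1. With voom on the reads this effect was 1.30 and a call. The difference between the DAC effects was -0.66, with an adjusted p of 0.0855, and lay between -0.93 without parental DMSO replicate 1 and -0.39 without replicate 2.

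FCGRT (ENSG00000104870, chr19:49506816-49526428, plus strand) encodes the heavy chain of FcRn, which pairs with β2-microglobulin and returns IgG and albumin from endosomes to the cell surface. It held 13.53 and 14.62 FPKM in parental cells with DMSO and 14.3 and 13.09 FPKM with DAC. The resistant libraries held 10.81 and 9.548 FPKM with DMSO and 9.14 and 8.541 FPKM with DAC. The parental groups overlapped each other, and every resistant library lay below them. The log2 fold change of resistant against parental cells was -0.43 in DMSO (adjusted p of 0.00262) and -0.58 under DAC (adjusted p of 0.000504), under the fold of a call. DAC effects were -0.04 in parental cells (adjusted p of 0.695) and -0.18 in resistant cells (adjusted p of 0.178). The latter lay between -0.263 and -0.101 with a library left out.

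FCER2 (ENSG00000104921, chr19:7688758-7702146, minus strand) encodes CD23, the low-affinity IgE receptor, a lectin unrelated in fold to the other receptors. It stood at 2.29 and 2.355 FPKM in parental cells with DMSO, from 178 and 175 reads, and at 1.781 and 1.603 FPKM with DAC, from 120 and 108 reads. In the resistant line it had 9 and 8 reads with DMSO and 8 and 5 with DAC, that is 0.116 and 0.109 FPKM and 0.102 and 0.0666 FPKM. The groups of the lines lay far apart under either treatment. Parental reads were 20.6 times the resistant ones in DMSO (95% interval 12.7 to 35.8, counting error only). The log2 fold change of FPKM + 1 was -1.58 ± 0.092 (SE) in DMSO, with an adjusted p of 2.01e-05, and -1.31 under DAC, with an adjusted p of 2.71e-05. Both met the call, as a description, since FCER2 entered the test through the parental libraries where it is high. In parental cells the DAC effect on FCER2 was -0.30, with an adjusted p of 0.0275, opposite in sign to FCAR and without a call. The effect in resistant cells was -0.04, with an adjusted p of 0.855, and the difference between the effects was 0.27, with an adjusted p of 0.134.

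**Figure D2:**
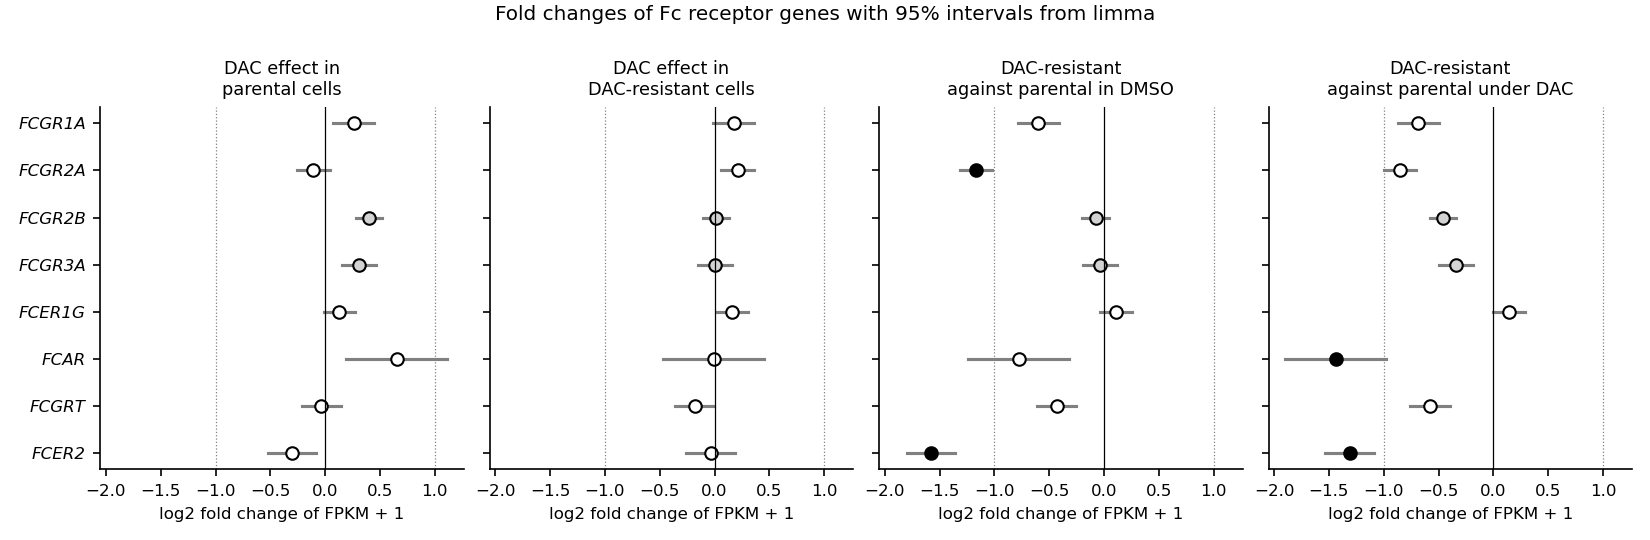
Log2 fold changes of FPKM + 1 (x axis) with 95% intervals from limma for the 8 genes in 4 comparisons; black points were called, white points were tested and not called, and grey points come from the fit without the filter. In the comparison with DMSO the black points are FCGR2A at -1.17 and FCER2 at -1.58, and under DAC they are FCAR at -1.44 and FCER2 at -1.31.

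Under DAC, the lines differed in FCAR and FCER2, which were called lower in resistant cells. These were 2 of 6 tested members, where 14.5% of all genes were called in either direction and 9.17% lower. Both were tested through the parental libraries alone, so the count is a description and nothing is read from it. At an adjusted p under 0.05, 5 members were lower, namely FCGR1A, FCGR2A, FCAR, FCGRT and FCER2, where 35.1% of all genes were lower by that rule, a count that again holds FCAR and FCER2 and is a description. The comparisons of the lines in DMSO and under DAC share no library, but each shares its libraries with a DAC effect.

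DAC itself gave no call among the tested members in either line. By limma 0 of the 6 tested members were called in parental cells, where 9.31% of all genes were, and 3 had an unadjusted p under 0.05. These 3 also had an adjusted p under 0.05, FCGR1A and FCAR with higher and FCER2 with lower values, where 57.7% of all genes did. In resistant cells limma called 0 of the 6, where 0.235% of all genes were called, and 3 had an unadjusted p under 0.05, of which 0 stayed under it after adjustment, where 11.2% of all genes did. The median log2 fold change of the 6 was 0.0467 in parental cells, against 0.057 over all genes. With voom on the recovered reads of genes with at least 10 reads, an alternative chosen after seeing the data, FCGR2B at 2.84, FCGR3A at 3.33 and FCAR at 1.30 were called higher in parental cells, where 12.4% of all genes were called higher. FCGR2B had 143 of its 170 reads and FCGR3A 20 of its 22 in the parental DAC libraries, so nothing is read from that count. These low receptors thus passed or missed the call with the scale on which they were read.

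Close copies of FCGR1A and FCGR2A were called higher with DAC in parental cells, where FCGR1A and FCGR2A were not, although the difference between genes was not tested. FCGR1B and FCGR1CP are pseudogene copies of FCGR1A on the same chromosome, and FCGR2C is a fusion of FCGR2A-like and FCGR2B-like sequence. FCGR1B stood at 3.28 ± 0.392 FPKM in parental cells with DMSO and rose to 8.63 ± 0.350 FPKM with DAC (SD, n = 2). Its log2 fold change was 1.17, with an adjusted p of 5.55e-05. FCGR1CP rose from 6.28 ± 1.13 to 16.4 ± 0.919 FPKM (SD, n = 2), by 1.26 on the log2 scale, with an adjusted p of 0.000383. FCGR2C held 22 and 30 reads with DMSO and 144 and 213 reads with DAC, a log2 fold change of 1.18 for FPKM + 1. It reached 1 FPKM in the parental DAC libraries alone and entered the test through them, so its call is a description. In resistant cells DAC gave no call for any of these 3 copies. FCGR1CP was called lower in resistant cells with DMSO, at -1.21.

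The share of family reads on the main gene was lowest in parental cells under DAC. FCGR1A took 78.28% and 78.03% of the reads of FCGR1A, FCGR1B and FCGR1CP in parental cells with DMSO. It took 60.42% and 63.8% with DAC, so that these libraries stood below all others. The resistant libraries stood above all others, with 86.28% and 86.09% in DMSO and 84.81% and 81.5% under DAC. No test between groups was made on these shares, and the parental DAC replicates themselves differed beyond their exact 95% binomial intervals, which cover counting error only. FCGR2A took 98.65% and 98.46% of the reads of FCGR2A, FCGR2B and FCGR2C in parental cells with DMSO and 91.07% and 87.71% with DAC. In resistant cells its share was between 98.84% and 99.8%. The copies are so alike that reads may have been divided among them or dropped by the counting, so their values are uncertain, as are those of FCGR1A, FCGR2A, FCGR2B and FCGR3A. FCGR1A also overlaps genes on the opposite strand, H2BC18 with a mean of 1.33 FPKM and a long noncoding RNA with 1.14 FPKM, and the sources used here do not state whether strand was used.

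Of 18 other Fc receptor and Fc receptor-like genes, 4 were tested, namely FCGR1B, FCGR1CP, FCGR2C and TRIM21. Of these 3 were called with DAC in parental cells, all higher. There 9.31% of all genes were called in either direction, and 993 of 14899 were called higher. All 4 were called lower in resistant than in parental cells under DAC, where 9.17% of all genes were. FCGR2C is in both counts and was tested through the parental DAC libraries alone, so both counts are a description. The 14 genes not tested never reached 1 FPKM in 2 libraries. Their reads were few, and 2 of them held at most 3 reads in every library. FCRL1, a B cell receptor of the Fc receptor-like family, had the most, with 13 and 24 reads in parental DMSO, 54 and 14 in parental DAC, 76 and 53 in resistant DMSO and 32 and 47 in resistant DAC libraries. FCRL1 and the 3 genes that follow were named after their values were seen. FCER1A, the ligand-binding chain of the high-affinity IgE receptor, had 4 and 12 reads in parental cells with DAC and 0 in the 6 other libraries. MS4A2, the β chain of the same receptor, had 34 and 18 reads with DMSO and 92 and 70 with DAC in parental cells, and between 4 and 15 in resistant ones. FCGR3B had 12 and 5 reads in parental cells with DAC and 1 read in all other libraries together.

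The other ITAM adaptor of myeloid cells, TYROBP (DAP12), was called lower in the resistant line, where FCER1G was not. TYROBP stood at 96.0 and 89.0 FPKM in parental cells with DMSO and at 187 and 179 FPKM with DAC. In resistant cells it stood at 33.9 and 33.2 FPKM with DMSO and at 35.7 and 36.9 FPKM with DAC. The log2 fold change of resistant against parental cells in DMSO was -1.44 (adjusted p of 1.58e-06). The DAC effect in parental cells was 0.98 (adjusted p of 5.44e-06), just under the fold of a call. The ratio of FCER1G to TYROBP in FPKM was 0.739 and 0.874 in parental cells with DMSO and 0.437 and 0.452 with DAC. It was 2.42 and 2.37 in resistant cells with DMSO and 2.40 and 2.56 with DAC. The adaptor of the Fc receptors therefore outnumbered TYROBP in resistant libraries and not in parental ones.

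**Figure D3:**
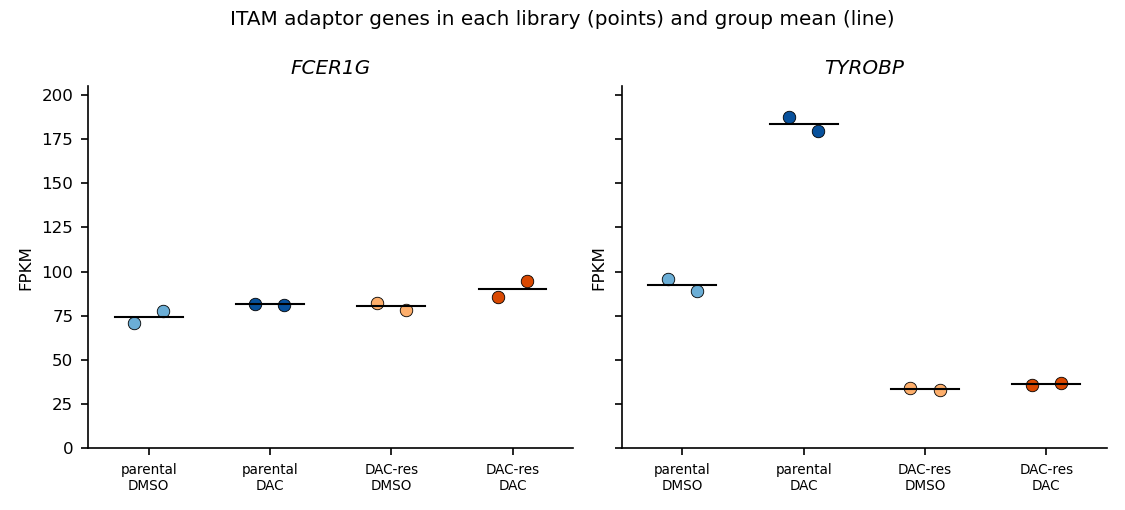
FPKM (linear axis from 0) of the ITAM adaptors FCER1G and TYROBP in each library, with points for the 2 replicates of each group and lines for the group means. TYROBP runs from 33.2 to 187 FPKM while FCER1G stays between 70.95 and 94.6 FPKM.

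The other genes around the receptors were described in 9 lists, of which 107 genes of 146 were tested. With DAC in parental cells 15 were called higher and 2 lower, or 15.9%, against 9.31% of all genes. In resistant cells in DMSO 5 were called higher and 13 lower than in parental cells, or 16.8%, against 8.73%. Their median log2 fold changes were 0.289 and -0.203. Under DAC 6 were higher and 35 lower in resistant than in parental cells, or 38.3%, against 14.5%, with a median of -0.497. In the difference between the DAC effects 3 were higher and 13 lower, where 10.6% of all genes were called. Of these calls, 3 of the 17 with DAC in parental cells, 2 of the 18 between the lines in DMSO and 12 of the 41 under DAC were of genes that met the filter only through the group or line where they are high, so the counts that hold them are a description. The calls in the difference between the DAC effects include FCGR2C, CLEC7A, SIGLEC9 and IGHA1. Each of these met the filter only through the group where it is high, so that count is a description too. In resistant cells DAC gave 1 call among the 107, or 0.935%, against 0.235% of all genes.

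That 1 gene was IGHA1, the constant region of the IgA heavy chain and so part of the ligand of FCAR, which is named after its values were seen. It held 246 and 90 reads in resistant cells with DAC and at most 2 reads in every other library, with a log2 fold change of 2.12. It reached 1 FPKM in those libraries alone and entered the test through them, so its call is a description. IGHG1, the heavy chain constant region of IgG1, had 15 and 468 reads in resistant cells with DMSO and 1065 and 465 with DAC. Its log2 fold change was 1.73, with an adjusted p of 0.205 and no call. The immunoglobulin constant genes have near-identical copies, so these values are uncertain to that extent.

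ITAM adaptors and the receptors paired with them were lower in the resistant line wherever they were called in DMSO. Of 8 tested, 4 were lower in resistant cells with DMSO and none was higher, where 4.28% of all genes were lower, with a median of -0.928. The 4 were TYROBP, OSCAR, LILRA2 and TREM2. OSCAR, a collagen receptor that uses FCER1G, fell from 12.8 FPKM to 2.20 FPKM, a log2 fold change of -2.11. LILRA2, which also signals through FCER1G, fell from 8.57 FPKM to 2.47 FPKM. With DAC in parental cells 2 were higher and 1 lower, or 37.5% called, where 9.31% of all genes were. CLEC7A, the β-glucan receptor dectin-1, had means of 0.0197 FPKM with DMSO and 1.97 FPKM with DAC, and was tested through the parental DAC libraries alone, so that count is a description. OSCAR fell to 5.67 FPKM.

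Kinases and signal carriers downstream of the ITAM mostly moved by less than the fold of a call with DAC in parental cells. Of 24 tested, 20 had an adjusted p under 0.05, 12 with higher and 8 with lower values, where 57.7% of all genes did. A single one was called, or 4.17% against 9.31% of all genes, the SRC family kinase FYN, which fell from 10.6 to 3.61 FPKM. In resistant cells with DMSO 2 were higher and 2, VAV2 and GAB2, lower, or 16.7% called, where 8.73% of all genes were. VAV2, a guanine nucleotide exchange factor, fell from 6.51 ± 0.207 FPKM to 0.0944 ± 0.00730 FPKM (SD, n = 2), a log2 fold change of -2.78. It was tested through the parental libraries alone, so its call and the count that holds it are a description. The linkers GRB2, from 87.9 to 184 FPKM, and SHC1, from 20.7 to 49.1 FPKM, were higher. SYK itself stood at 44.6 and 30.1 FPKM in parental and resistant cells, a log2 fold change of -0.55 with an adjusted p of 0.000123 and no call.

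Genes of phagocytic uptake and of the oxidase included the largest rises with DAC. Of 19 tested 3 were called in parental cells, all higher, or 15.8%. There 9.31% of all genes were called in either direction, and 993 of 14899 were called higher. CYBB, the catalytic subunit of the phagocyte oxidase, rose from 11.8 ± 0.144 to 67.0 ± 1.68 FPKM (SD, n = 2), and NCF1, a cytosolic subunit, from 8.49 to 52.6 FPKM. NCF1 has near-identical pseudogenes, so its value is uncertain. In resistant cells with DMSO the lysosomal membrane protein LAMP2 was higher, 106 against 35.1 FPKM, and the oxidase subunit NCF4 lower, 41.0 against 109 FPKM.

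Between the lines with DMSO, inhibitors of ITAM signalling were called lower in resistant cells for 4 of 18 tested and higher for none, where 4.28% of all genes were lower. These 4 were the inhibitory receptors LILRB2, LILRB4, PECAM1 and CD33. LILRB2 was tested through the parental libraries alone, so the count is a description. PECAM1 stood at 16.7 against 42.3 FPKM and LILRB4 at 7.58 against 20.7 FPKM. INPP5D, which encodes the phosphatase SHIP1 that FCGR2B recruits, varied little, with group means of 41.6, 42.7, 46.4 and 47.0 FPKM. SIGLEC9, an inhibitory sialic acid receptor, was the sole member called with DAC in parental cells, or 5.56% of the 18, where 9.31% of all genes were. It had means of 0.0195 FPKM with DMSO and 1.88 FPKM with DAC. It too was tested through the parental DAC libraries alone, so that count is a description.

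The partner chain of FcRn was called with DAC in parental cells, where its heavy chain was not. B2M, which encodes β2-microglobulin, rose from 204 ± 1.84 to 566 ± 5.82 FPKM with DAC in parental cells (SD, n = 2), a log2 fold change of 1.47 with an adjusted p of 6e-08. In resistant cells it stood at 222 FPKM with DMSO and 257 FPKM with DAC. It was 1 of 6 genes of the FcRn list called in parental cells, or 16.7%, where 9.31% of all genes were. Between the lines in DMSO limma called 0 of the 6, where 8.73% of all genes were called, and 5 had an adjusted p under 0.05, where 57.5% of all genes did. ITGAM, the α chain of the integrin that binds CD23, was lower in resistant cells with DMSO, 1.80 against 6.40 FPKM. It was the sole one called there of 9 tested partners and sheddases of CD23, or 11.1%, where 8.73% of all genes were called. ADAM10, the main sheddase of CD23, stood at 15.9, 23.0, 13.7 and 13.2 FPKM in parental cells with DMSO and DAC and in resistant cells with DMSO and DAC, with no call.

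Of 17 tested regulators of Fc receptor genes, 5 were called with DAC in parental cells, all higher. There 9.31% of all genes were called in either direction, and 993 of 14899 were called higher. In resistant cells 0 of the 17 were called, where 0.235% of all genes were. CEBPE, a granulocyte factor, rose from 1.25 ± 0.116 to 12.02 ± 0.752 FPKM (SD, n = 2), a log2 fold change of 2.53 with an adjusted p of 2.34e-05. EGR1, an early response factor, rose from 0.802 to 4.94 FPKM. SPI1, which encodes PU.1, stood at 102 FPKM in parental and 69.9 FPKM in resistant cells with DMSO, a log2 fold change of -0.54 with an adjusted p of 5.37e-05 and no call. IRF8 stood at 45.4 and 49.6 FPKM in the same groups and at 27.9 FPKM in parental cells with DAC, also without a call. In resistant cells with DMSO, EGR1 was called higher, at 7.92 FPKM.

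The libraries carried the monocytic markers of the line to very different extents. Of 11 monocyte markers, 9 were at 1 FPKM or above in both parental DMSO libraries, 10 in parental DAC, 7 in resistant DMSO and 6 in resistant DAC libraries. Their summed level was between 222 and 241, 934 and 945, 147 and 148, and 136 and 138 FPKM in these groups. A large part of these sums came from single genes, S100A9 with a mean of 609.7 FPKM in parental DAC and CD4 with 157.0 and 122.5 FPKM in parental and resistant DMSO libraries. CD4, at 121.4 and 125.3 FPKM, and CD33 were lower in parental DAC than in parental DMSO libraries, against the sum. The sum was highest where FCAR and FCGR2B were highest and lowest in the resistant groups. FCN1 was at 0 in both resistant DMSO libraries, but stood at 0.00416 and 0 FPKM in the parental DMSO ones too, so it did not set the lines apart. CD68 went against the sum between the lines. It stood at 0.718 and 1.35 FPKM in resistant DMSO and at 0.642 and 0.366 FPKM in parental DMSO libraries. Markers of other cells also moved with DAC in parental cells. The 6 mast cell and basophil markers summed to 0.192 to 0.299 FPKM with DMSO and 9.82 to 10.1 FPKM with DAC, and to at most 0.124 FPKM in resistant cells, with FCER1A at 0 in all but the parental DAC libraries. The 6 T cell markers summed to at most 0.159 FPKM with DMSO and 4.45 to 4.71 FPKM with DAC, with CD3D, CD3E, CD3G and CD2 at 0 in parental DMSO. The 6 B cell markers summed to between 5.39 and 5.97 FPKM in parental DMSO and between 2.41 and 2.96 FPKM in resistant DMSO libraries, where FCER2, which B cells also express, was lower too. In parental DAC libraries the sum was higher, between 6.34 and 7.55 FPKM, while the FCER2 level was below that with DMSO. The 8 erythroid and megakaryocyte markers summed to between 0.802 and 1.12 FPKM with DMSO and between 4.39 and 5.56 FPKM with DAC in parental cells. Other sums were higher in the resistant line, against the direction of the Fc receptors. The 6 plasma cell markers, mostly XBP1, summed to 59.8 to 61.7 FPKM in parental and 97.4 to 97.6 FPKM in resistant DMSO libraries. The 6 NK cell markers, mostly NCAM1, summed to 22.8 to 25.2 and 33.1 to 34.1 FPKM in the same groups. NKG7 and KLRF1 went against that sum and were lower in resistant than in parental DMSO libraries. NKG7 stood at 5.14 and 6.20 FPKM in parental and at 1.93 and 2.46 FPKM in resistant ones, and was called lower. The part of these marker shifts in the Fc receptor values was not tested.

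The genes whose pattern over the 8 libraries was most like that of a member were found by Pearson's r of log2(FPKM + 1) among 3606 genes whose group means spanned at least 1, as the means of FCGR2A, FCAR and FCER2 did. For FCGR2A these were AOAH at 0.997, GIPC3 at 0.997 and TXNIP at 0.995. AOAH, an enzyme that inactivates lipopolysaccharide, stood at 5.46, 4.26, 0.724 and 1.18 FPKM in parental DMSO, parental DAC, resistant DMSO and resistant DAC libraries. For FCAR they were TNFSF13 at 0.992, FAM71F2 at 0.992 and MAB21L3 at 0.990. TNFSF13, the cytokine APRIL, stood at 1.69, 2.77, 0.606 and 0.540 FPKM in the same order. For FCER2 they were RPS4Y1 at 0.999, TBCEL at 0.999 and MS4A14 at 0.999. RPS4Y1, a ribosomal protein gene of the Y chromosome, stood at 89.1, 42.8, 0.843 and 0.818 FPKM, and MS4A14 at 18.9, 13.6, 1.53 and 1.43 FPKM. With 4 groups and 2 libraries each, such values of r describe likeness in the order of the groups and carry no test.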

How the data were processed

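The authors trimmed reads with Cutadapt 1.9.1, aligned them to hg38 with HISAT2 2.1.0, sorted them with SAMtools 1.6 and counted them on Ensembl genes with HTSeq 0.13.5. They deposited FPKM values per gene and library, written as FPKM multiplied by 1000, which were divided by 1000 here. Handling of multi-mapping reads is not given in the sources used here.

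Reads were recovered from the steps between values, within 0.02 reads of a whole number, with GENCODE exon lengths for 34978 genes and by ratios between libraries for 3014, together 95.96% of genes above 0. Reads by ratios, as for FCGR2B, FCGR3A, FCGR1B, FCGR2C and FCGR3B, are the smallest whole numbers that fit. They served for read ratios, intervals (95%, exact) and voom. The main test was limma 3.58.1 in R 4.3.3 with a variance trend on log2(FPKM + 1), with 4 group means and all 8 libraries in a fit. Genes needed 1 FPKM in 2 libraries. On data simulated for DAC in parental cells, 173 of 199 genes changed by 1.5 (log2) were called among 13113 tested, with 7 unchanged ones. The changed genes were drawn from above a set level in the first parental DMSO library, and the same spread was set for every gene. FCAR, FCGR2B and FCGR3A lay under that level, so the rate says nothing of them. The replicates of each group differed beyond sampling noise, with 0 identical values. The p-values measure the spread between these libraries.

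Members and lists were chosen with earlier results of these data known. From each list at most 4 genes were named, those with the largest called changes with DAC in parental cells or between the lines in DMSO, besides TYROBP, SYK, INPP5D, SPI1, IRF8, B2M and ADAM10; some regulators that the rule names are not reported here. Others are named for low counts or to account for a list. Alternatives were another pseudocount, no filter or a stricter one, TPM, quantile scaling, a replicate block, the adjusted p, voom, the compared libraries alone, and each replicate left out. Motifs were searched in the 250 bases before each start, leaving out the bases after it that the design had included.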

Additional observations from a re-analysis of the deposited data

Results flagged for a closer look

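For FCGR2A and FCGR2B the test of the difference between the DAC effects gave an adjusted p under 0.05, and neither gene was called. In the filtered fit, which holds FCGR2A and not FCGR2B, 49.3% of all genes had such a p. For FCGR2A the difference between the DAC effects was 0.317 on the log2(FPKM + 1) scale (adjusted p of 0.0231, limma), from -0.11 in parental and 0.21 in DAC-resistant cells. For FCGR2B it was -0.384 in the fit without the filter (adjusted p of 0.0143), from 0.40 and 0.01, and it rests on 143 reads in the parental DAC group and 4 in the resistant DAC group.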

How the results depend on the processing

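No member was called with DAC in either line or in the difference between the DAC effects under the alternatives planned, except in parental cells with voom on recovered reads, where 1 was called (FCAR). Without the replicates in turn the counts of members called were 0 to 0 for the 2 DAC effects and their difference, 2 to 3 for the lines in DMSO (3 without parental DMSO replicate 2, adding FCAR) and 2 to 2 under DAC. With voom on genes with at least 10 reads, added after seeing the data, 3 members were called with DAC in parental cells, 4 between the lines in DMSO and 4 under DAC. With a pseudocount of 0.1, TPM or voom on recovered reads 3 were called between the lines in DMSO (adding FCAR), and with TPM 3 under DAC (adding FCGR2B). With a mean of at least 5 FPKM required, FCAR and FCER2 left the test, so that 1 member was called in DMSO and 0 under DAC. Calls over all genes with DAC in parental cells numbered 1387, against 2097 with a pseudocount of 0.1, 573 with a mean of at least 5 FPKM, 2777 after rescaling to TPM and 2215 with voom. Between the lines in DMSO these were 1300 against 2263, 517, 2586 and 2373, and under DAC 2154 against 3249, 908, 4193 and 3363. In resistant cells they were 35 against 107, 6, 179 and 53, and for the difference 1583 against 2209, 721, 2797 and 2265. Quantile normalization moved the median of all genes with DAC in parental cells from 0.057 to -0.053 and the calls there from 993 higher and 394 lower to 843 and 580. It moved those between the lines under DAC from 788 and 1366 to 1019 and 1161, and those of the difference from 516 and 1067 to 686 and 916.

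Values near 0 changed sign. FCGRT with DAC in parental cells was 0.0148 without parental DMSO replicate 2 and 0.0222 without parental DAC replicate 2, in a range from -0.0963 to 0.0222 with a library left out. FCAR with DAC in resistant cells was 0.00704 without resistant DMSO replicate 2. The difference between the DAC effects became 0.00621 for FCGR1A without parental DAC replicate 2 (range -0.180 to 0.00621), and for FCER1G -0.0287 after quantile normalization, -0.0336 without parental DMSO replicate 2 and -0.0410 without resistant DAC replicate 2 (range -0.0410 to 0.104). FCER1G between the lines under DAC was -0.0241 after quantile normalization. The cause was not tested.

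With the replicate number as a block the members called stayed at 0, 0, 2, 2 and 0, and the calls over all genes were 1388, 35, 1293, 2152 and 1586. Differences between same-numbered replicates correlated between groups at -0.022 to 0.02 over 14899 genes, so the numbers name replicates and were not taken as pairs.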
